A study of Mus musculus with 4 samples.

Results

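A set of 9 transcription factor genes of the mammary epithelium were followed through 3 epithelial cell classes of control and *Lats1/2*-deleted mouse glands. The members, *Elf5*, *Ehf*, *Elf3*, *Gata3*, *Foxc1*, *Foxq1*, *Trp63*, *Bcl11a* and *Tfap2c*, were taken by symbol from the 28693 genes of the count matrices, and each had 1 row. Droplet-based 3′ single-cell RNA counts came from 4 libraries of live-sorted mammary gland cells, 1 library per mouse. The 2 CTL mice carried Lats1f/f, Lats2f/f and 1 R26-lsl-EYFP allele without Cre. The 2 LATS1/2-KO mice carried the same floxed alleles with Krt8-CreERT2, and had 1 EYFP allele in replicate 1 and 2 in replicate 2. Every mouse, CTL included, was given 2 mg of tamoxifen 5 times and was sampled 7 days after the last dose, and the animals were nulliparous adults. The Cre is driven by the promoter of *Krt8*, a luminal keratin, so recombination was directed to luminal cells, and EYFP marks cells in which Cre acted. The CTL and LATS1/2-KO groups therefore differ in Cre as well as in *Lats1/2*, and the 2 cannot be told apart.

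The mammary duct has an inner luminal layer and an outer basal, myoepithelial layer. Luminal cells divide into estrogen receptor-negative (ER-) cells, which include the precursors of milk-producing alveoli, and hormone-sensing cells, which carry receptors for estrogen, progesterone and prolactin. *Elf5*, *Ehf* and *Elf3* encode epithelial ETS factors, and *Elf5* drives alveolar differentiation. *Gata3* is a luminal fate regulator, *Trp63* (p63) is the basal keratinocyte regulator, *Tfap2c* (AP-2γ) and *Bcl11a* act in luminal and progenitor cells, and *Foxc1* and *Foxq1* encode forkhead factors known from basal-like breast cancer. LATS kinases restrain YAP and TAZ, which act on DNA through TEAD factors.

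Cells were assigned by marker genes, none of which was a member. Of 18200 kept cells, 9007 were luminal ER-, 2213 hormone-sensing and 875 basal. A further 1058 cells held luminal keratins but neither luminal marker set, with 5 and 1 in the CTL and 517 and 535 in the LATS1/2-KO libraries. They are called luminal cells without a marker set and were kept apart. The 2014 and 1990 LATS1/2-KO luminal ER- cells had 13778 and 15439 unscaled CPM (UMIs relative to all UMIs of the class) from 9 luminal ER- markers, against 17730 and 21501 in CTL. The same 9 markers set the gate, so these sums do not check the class. The hormone-sensing class was small in LATS1/2-KO, with 370 and 108 cells against 1001 and 734. Depth was 42630666 to 46810771 UMIs in the CTL libraries and 38792520 to 44758376 in the LATS1/2-KO libraries, and any pair of libraries shared 4 to 17 cell barcodes. When all cells were clustered by expression, CTL and LATS1/2-KO cells of each epithelial class lay mostly in different clusters. The main luminal ER- clusters held 2939 and 2099 CTL and 0 LATS1/2-KO cells, 3 and 6 CTL against 1148 and 1362 LATS1/2-KO cells, and 4 and 4 against 1026 and 845. The main hormone-sensing clusters held 1291 and 955 against 6 and 1, and 5 and 35 against 436 and 124, and the basal clusters 191 and 157 against 4 and 1, and 0 and 0 against 358 and 470. *Lats1* checked the labels in part: in luminal ER- cells it fell by 0.97 ± 0.12 (SE) on the log2 scale (adjusted p = 0.00039), while *Lats2* was 0.50 ± 0.11 higher (adjusted p = 0.0057), and the 3′ counts do not show which exons were lost. EYFP had 8 UMIs in each CTL luminal ER- sum and 1503 and 2226 in the LATS1/2-KO sums.

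Promoter sequence was available from RefSeq (GRCm38.p6, the build mm10 named by the submitters) for 5 of the 9 members, in windows from 250 bases before to 50 bases after a transcription start. The TEAD motif GGAATG (reverse complement CATTCC), the AP-1 motif TGANTCA and the ETS motif GGAAGT (reverse complement ACTTCC) were searched on both strands. These letters occurred in 14.7%, 7.81% and 23.8% of 32851 windows of the same length. Among 6 windows of the members, the TEAD letters occurred in the *Elf3* window and in the window of the upstream start of *Elf5*, once each, and no AP-1 or ETS match was present. The stretches below precede a transcription start and hold no annotated exon bases of their gene. They come from 3 genes whose knockout effect or level differed between classes, *Elf3*, *Elf5* and *Foxc1*. Their positions are chr1:135258569-135258722 on the minus strand, and chr2:103423818-103424061 and chr13:31806396-31806632 on the plus strand. The *Elf5* stretch precedes its internal start and lies within the gene. All 250 bases before the upstream *Elf5* start are in an annotated exon, so its TEAD match is not printed. Capitals mark the TEAD letters, which begin 235 bases before the *Elf3* start.
Elf3: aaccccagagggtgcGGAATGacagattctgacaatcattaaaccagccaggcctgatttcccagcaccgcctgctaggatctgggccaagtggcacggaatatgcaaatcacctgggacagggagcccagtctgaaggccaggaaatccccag
Elf5: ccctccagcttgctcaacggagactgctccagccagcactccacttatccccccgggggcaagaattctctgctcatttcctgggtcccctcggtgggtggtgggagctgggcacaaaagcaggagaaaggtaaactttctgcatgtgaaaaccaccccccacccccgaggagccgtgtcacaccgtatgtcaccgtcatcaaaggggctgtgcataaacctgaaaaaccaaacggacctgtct
Foxc1: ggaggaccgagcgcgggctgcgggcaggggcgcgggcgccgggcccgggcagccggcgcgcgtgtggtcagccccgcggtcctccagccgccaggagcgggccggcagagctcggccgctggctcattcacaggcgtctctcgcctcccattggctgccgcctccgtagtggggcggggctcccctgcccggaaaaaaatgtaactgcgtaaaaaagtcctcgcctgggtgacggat
A match here is a description of letters and not a bound site. Some members are neighbours in the genome: *Ehf* and *Elf5* lie 108.8 kb apart on chromosome 2, and *Foxq1* and *Foxc1* 245.7 kb apart on chromosome 13.

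Levels by class showed which members mark which cells. Unscaled CPM are the UMIs of a gene relative to all UMIs of a class in a library, without TMM factors, and are a description, since the members were chosen as lineage factors. *Elf5* was a luminal ER- gene, with 235 and 308 in CTL luminal ER- cells against 1.33 and 2.01 in hormone-sensing and 5.18 and 6.51 in basal cells. Its hormone-sensing and basal values lay at or below the 6.76 and 7.65 of CTL cells that are not epithelial, the background of free RNA. *Ehf* followed the same order, with 286 and 332, then 15.7 and 21.8, then 1.73 and 6.51. The CTL hormone-sensing range for *Ehf* overlapped the 2.25 and 19.1 of non-epithelial cells.

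*Elf3* was shared by both luminal classes, with 171 and 189 in luminal ER- and 96.9 and 154 in hormone-sensing CTL cells, and was low in basal cells at 10.4 and 9.76. *Gata3* was highest in hormone-sensing cells (333 and 258), with basal (167 and 229) and luminal ER- cells (132 and 144) below, and in CTL the 3 ranges did not overlap. Immune cells also carried *Gata3* in CTL, at 72.8 and 76.1. *Tfap2c* was highest in basal cells (150.2 and 209.8), then luminal ER- cells (83.2 and 77.9), and was near background in hormone-sensing cells (4.66 and 3.61, against 1.13 and 7.65 in non-epithelial cells).

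*Trp63* was a basal gene, with 126 and 92.7 in CTL basal cells, 8.99 and 3.13 in hormone-sensing cells and 1.00 and 0.186 in luminal ER- cells. Its count of 0 in CTL non-epithelial cells allows up to 3.38 and 5.74 unscaled CPM. *Bcl11a* was a gene of low level with 21.97 and 20.4 in luminal ER- and 17.3 and 11.4 in basal CTL cells, and 0.25 and 0 in hormone-sensing cells. *Foxc1* marked luminal ER- cells, at 59.6 and 58.9, and was 13.8 and 6.51 in basal and 0.583 and 1.28 in hormone-sensing cells. It was also an endothelial gene, at 119 and 105 in CTL. *Foxq1* was low in every CTL class, with 12.9 and 8.45 in luminal ER-, 4.58 and 6.42 in hormone-sensing and 5.18 and 3.25 in basal cells, the last 2 overlapping.

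**Figure D1:**
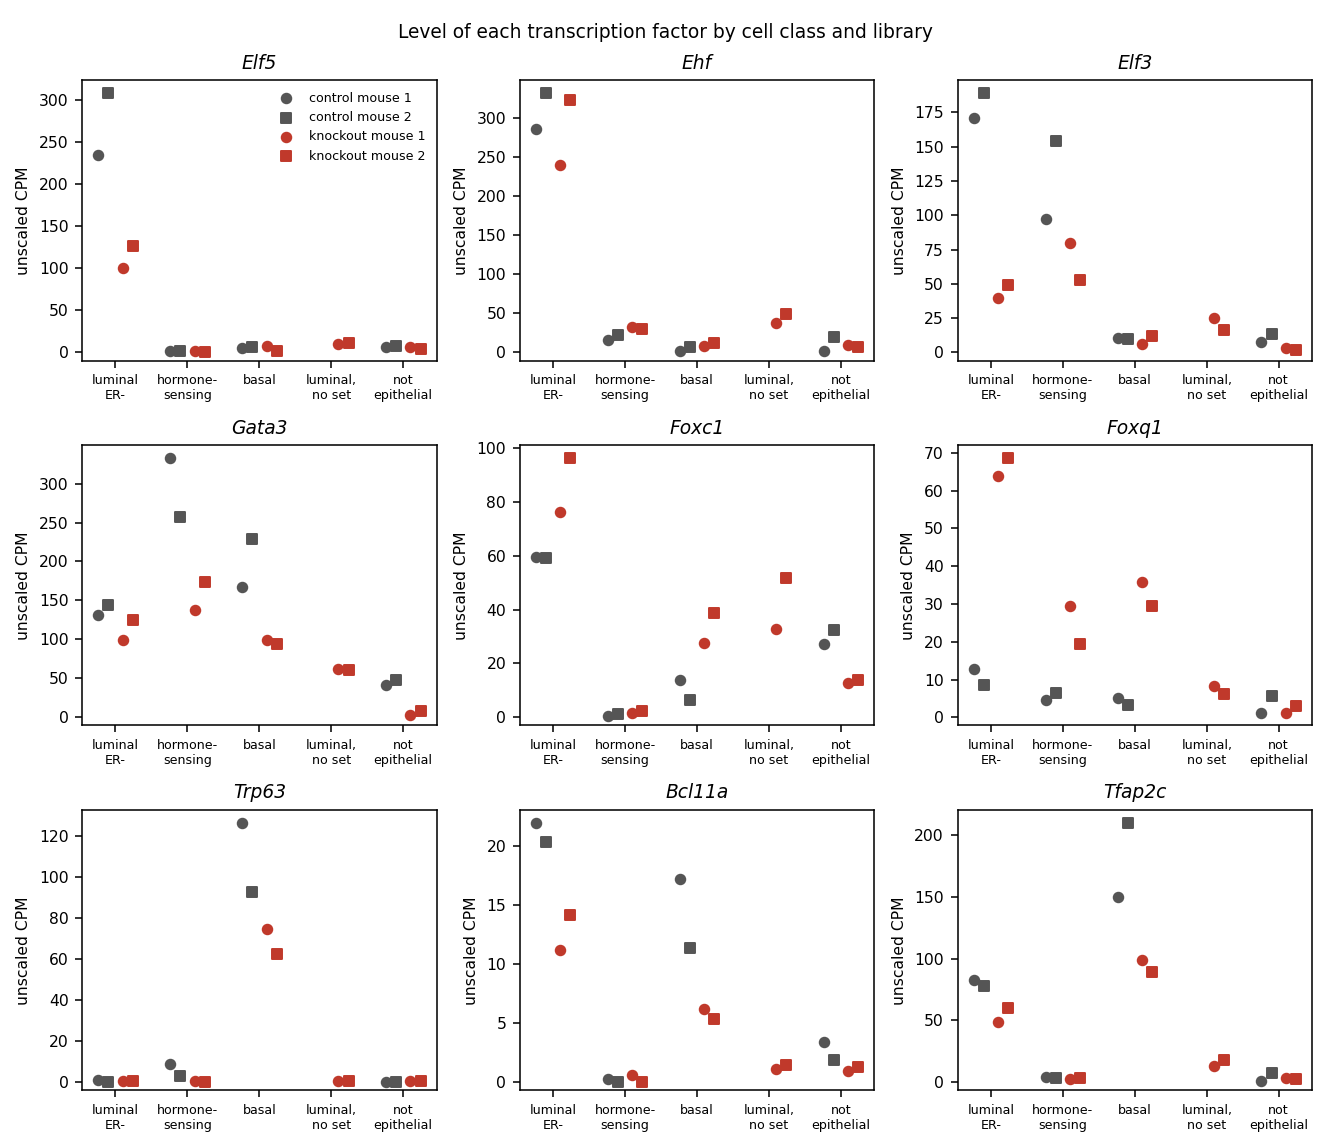
Unscaled CPM (y axis) of the 9 genes in 3 epithelial classes, in luminal cells without a marker set (LATS1/2-KO only, since CTL held 6 such cells) and in cells that are not epithelial (x axis); each point is 1 library, circles for mouse 1 and squares for mouse 2. *Elf5* and *Ehf* stand out in luminal ER- cells, *Trp63* in basal cells, and *Foxq1* is at 19.3 to 68.6 in the 3 LATS1/2-KO classes against at most 12.9 in CTL.

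The comparison of LATS1/2-KO with CTL luminal ER- cells asked how the luminal progenitor program stands in LATS1/2-KO mice. *Elf3*, *Elf5*, *Bcl11a*, *Tfap2c*, *Gata3* and *Ehf* were lower and *Foxq1* was higher, with *Elf3* the furthest down among the 9. All 9 members were tested and 7 were called at an adjusted p under 0.05 by edgeR, 6 lower and 1 higher. The background is high, since 59.7% of 13401 tested genes were called, 28.6% lower and 31.1% higher. The median log2 fold change was -0.65 over the 9 members and 0.01 over all genes tested. CPM beside tests are scaled by TMM factors, which set the centre of all genes to near 0.

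*Elf3* had 194 and 213 CPM in CTL and 35.1 and 43.4 in LATS1/2-KO. *Elf5* had 266 and 347 against 89.7 and 111. In both genes each LATS1/2-KO mouse lay far below each CTL mouse. The log2 fold changes were -2.38 ± 0.13 for *Elf3* (adjusted p = 1.1e-05) and -1.61 ± 0.16 for *Elf5* (adjusted p = 0.00013). *Foxq1* went the other way, with 14.6 and 9.53 CPM in CTL against 56.9 and 60.3 in LATS1/2-KO, for a log2 change of 2.27 ± 0.18 (adjusted p = 5.0e-05).

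*Bcl11a* was at 24.9 and 23.0 CPM in CTL against 10.0 and 12.4 in LATS1/2-KO, for a log2 change of -1.09 ± 0.14 (adjusted p = 0.00043). *Tfap2c* was at 94.4 and 87.9 against 43.6 and 52.9, a log2 change of -0.92 ± 0.12 (adjusted p = 0.00048). Both genes thus had groups that did not overlap, as did 82.7% of all tested genes. *Gata3* had 149 and 163 CPM against 88.2 and 110.2, a log2 change of -0.65 ± 0.13 (adjusted p = 0.0033). *Ehf* had 325 and 374 against 213 and 283, a log2 change of -0.49 ± 0.15 (adjusted p = 0.025). *Foxc1* was 67.7 and 66.5 against 67.9 and 84.5 CPM and was not called (0.18 ± 0.12, adjusted p = 0.23). *Trp63*, with 26 and 4 UMIs in CTL and 14 and 9 in LATS1/2-KO, was not called either (-0.54 ± 0.70, adjusted p = 0.53).

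The smaller changes depended on scaling. Without TMM the median gene was 0.37 higher in LATS1/2-KO, the share of calls that were higher went from 52.1% to 73.7%, *Ehf* (-0.14) and *Gata3* (-0.30) lost their calls and *Foxc1* (0.54) gained one. The call for *Ehf* was also lost without CTL replicate 2 (-0.39) and without LATS1/2-KO replicate 1 (-0.32), and the latter gave *Foxc1* a call (0.32).

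Shares of cells with a UMI were compared after each cell was thinned to 2000 UMIs, because detection grows with depth. For *Elf5* the thinned share was 36.8% and 43.4% in CTL and 19.9% and 22.7% in LATS1/2-KO luminal ER- cells, against 73.5% and 82.8% and 49.7% and 57.1% before thinning. The thinned share in non-epithelial cells was at most 1.79%. *Elf3* was detected in 27.3% and 29.5% of thinned CTL cells and in 8.60% and 10.8% of LATS1/2-KO cells, and *Foxq1* in 2.28% and 1.98% against 12.5% and 13.8%. These 3 genes kept their order, with libraries that did not overlap. *Ehf* shares overlapped, at 40.6% and 45.8% in CTL and 40.0% and 48.0% in LATS1/2-KO. An exact two-sided permutation test of 2 libraries against 2 cannot go below p = 0.3333. The thinned cells numbered 2801 and 2066 in CTL and 1906 and 1912 in LATS1/2-KO, and cells with fewer UMIs were left out.

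Cell states within luminal ER- cells moved with these levels. Cells with 2 or more UMIs of *Krt14*, a basal keratin, made up 55.0% and 40.3% of LATS1/2-KO luminal ER- cells and 0.242% and 0% of CTL cells. Cells with *Mki67* or *Top2a*, genes of dividing cells, made up 32.6% and 23.1% against 3.38% and 4.42%. The split by *Krt14* was also one by depth in LATS1/2-KO. Cells with 2 or more *Krt14* UMIs held 14560189 UMIs in 1108 cells and 13127765 in 802. Those without *Krt14* held 3213125 in 535 and 6199081 in 848. In LATS1/2-KO cells without *Krt14*, *Elf5* was at 148 and 178 unscaled CPM, and in those with 2 or more *Krt14* UMIs at 81.0 and 94.3. *Ehf* was at 368 and 452 without *Krt14*, above the 286 and 331 of such CTL cells, and at 184 and 237 with it. The order was the same for *Elf3*, at 66.9 and 69.5 against 29.7 and 36.1, where even cells without *Krt14* stood below the 171 and 188 of CTL.

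*Foxq1* was likewise higher in LATS1/2-KO cells without *Krt14* (99.0 and 106) than with it (51.1 and 45.9), both above the CTL cells (12.8 and 8.46). With cells of 2 or more *Krt14* UMIs left out of the test, *Elf5* (-1.11), *Elf3* (-1.81), *Bcl11a* (-0.47), *Tfap2c* (-0.37) and *Foxq1* (2.84) were still called, *Gata3* (-0.28) and *Ehf* (0.05) were not, and *Foxc1* was called higher (0.47). Without dividing cells, *Ehf* (-0.11) alone of the 7 lost its call and *Foxc1* (0.35) gained one. Fibroblast markers were higher in the class as well, from 14.0 and 14.5 unscaled CPM over 6 genes in CTL to 210 and 218 in LATS1/2-KO, and immune markers from 9.29 and 11.5 over 9 genes to 35.7 and 36.5. Their part in the results was not tested.

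**Figure D2:**
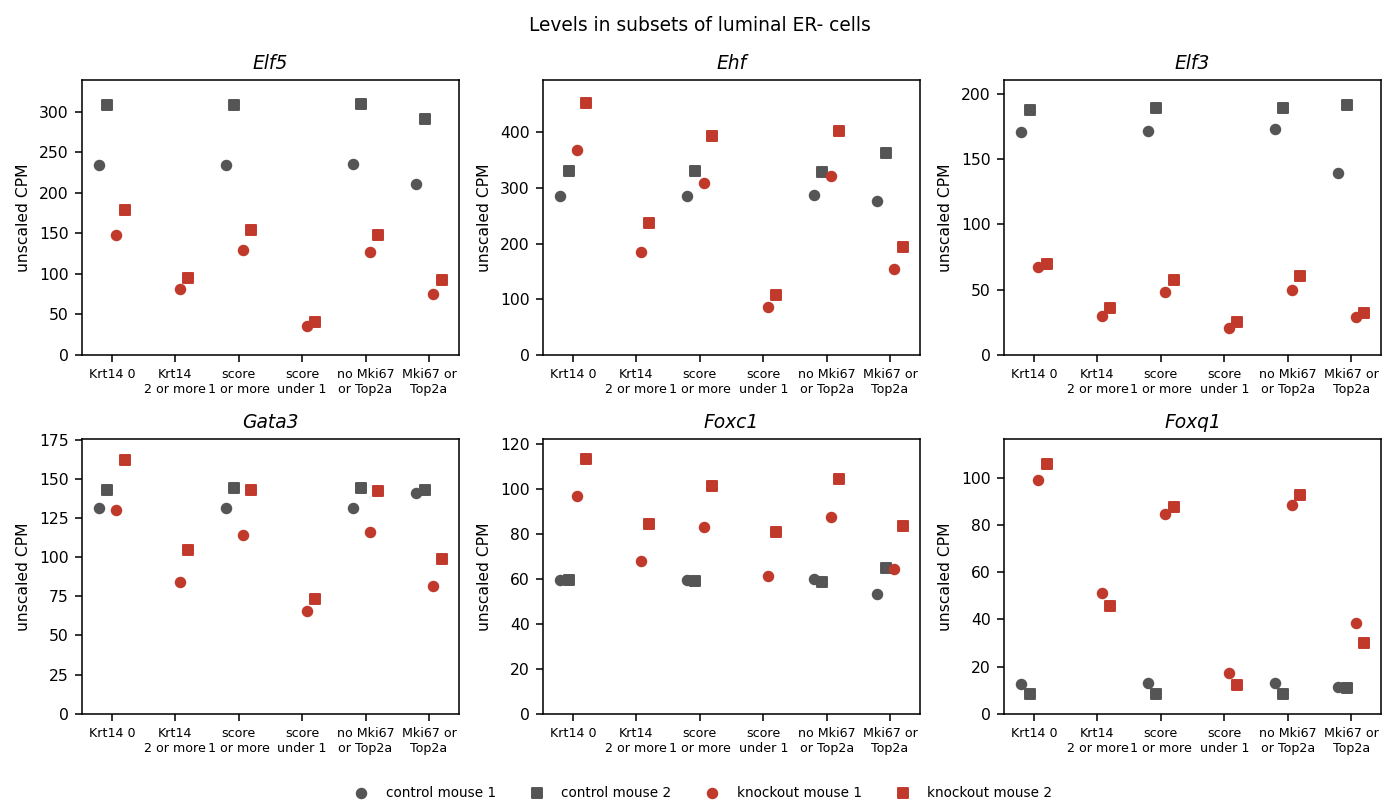
Unscaled CPM (y axis) of 6 genes in luminal ER- cells split by *Krt14* UMIs, by luminal ER- marker score and by *Mki67* or *Top2a* (x axis); each point is 1 library, and CTL points are omitted for 2 or more *Krt14* UMIs and for a score under 1, where they held at most 9 cells. LATS1/2-KO points of *Elf5* and *Elf3* lie below CTL in each of the 4 cell sets that have CTL points, while those of *Ehf* lie above CTL in cells without *Krt14*.

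LATS1/2-KO luminal ER- cells with a low luminal ER- marker score held less of each member than those with a higher score in both mice, except for *Trp63*. *Trp63* was at 1.43 and 1.08 unscaled CPM under a score of 1, from 9 and 6 UMIs, and at 0.357 and 0.178 at 1 or more, from 5 and 3 UMIs. The score ranges without a gap, and 383 and 258 LATS1/2-KO cells lay within 0.1 of the limit of 0.5 for the class. LATS1/2-KO cells scoring 1 or more had *Elf5* at 130 and 155 unscaled CPM, those under 1 had 35.9 and 40.5, and luminal cells without a marker set had 9.90 and 11.4. The same steps were 308 and 394, 86.6 and 107, and 37.4 and 48.8 for *Ehf*. For *Foxq1* they were 84.8 and 87.4, 17.3 and 12.01, and 8.33 and 6.11, against 12.9 and 8.45 in the CTL luminal ER- libraries. Cells without a marker set thus lay below both CTL libraries in LATS1/2-KO replicate 2. In LATS1/2-KO replicate 1 they held 53 *Foxq1* UMIs and were level with CTL replicate 2. These values are a description, since the score used genes of the same program.

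*Bcl11a* had the same steps, with 13.8 and 17.3 at a score of 1 or more, 5.56 and 4.48 under 1, and 1.10 and 1.46 in luminal cells without a marker set. In the last cells *Gata3* was at 62.2 and 61.2, *Foxc1* at 32.8 and 51.6, *Elf3* at 24.8 and 16.6 and *Tfap2c* at 13.5 and 18.1. *Trp63* was at 0.471 and 0.398, with 3 UMIs in each library, although 87.2% and 85.0% of these cells held 2 or more *Krt14* UMIs. LATS1/2-KO basal cells had *Trp63* at 74.6 and 62.3. Cells with luminal keratins and a basal marker score of 0.5 or more passed no gate, so this set cannot show whether luminal cells gain *Trp63*. Among all cells that passed no gate, *Trp63* was at 10.6 and 14.1 in LATS1/2-KO and at 10.3 and 9.02 in CTL.

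Hormone-sensing cells showed higher *Foxq1* and lower *Gata3* and *Trp63* in LATS1/2-KO, with *Ehf* called higher. Of 9 members 8 were tested and 4 were called, 2 higher and 2 lower. In the background 25.9% of 11739 tested genes were called, 13.6% higher and 12.4% lower. The median log2 change was -0.21 over the members tested and -0.01 over all genes tested. *Bcl11a* had 5 UMIs in all and was not tested.

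*Gata3* had 338 and 256 CPM in CTL against 140.2 and 171 in LATS1/2-KO, for a log2 change of -0.95 ± 0.17 (adjusted p = 0.0093). *Foxq1* had 4.66 and 6.37 against 29.8 and 19.0 CPM, a log2 change of 2.20 ± 0.28 (adjusted p = 0.0028). For both genes the groups were well apart, as 67.6% of tested genes had groups that did not overlap. *Ehf* had 16.01 and 21.7 against 32.6 and 29.7 CPM, a log2 change of 0.74 ± 0.21 (adjusted p = 0.040). The 9 luminal ER- markers also summed higher in LATS1/2-KO hormone-sensing cells, at 422 and 340 unscaled CPM against 251 and 214 in CTL. Their part in this change and in the *Ehf* difference between classes was not tested. *Elf3* had 98.6 and 153 against 81.1 and 52.0 CPM and just missed the threshold (-0.87 ± 0.26, adjusted p = 0.051). *Tfap2c* (4.74, 3.59, 2.80 and 3.30 CPM), *Foxc1* (at most 2.48 CPM) and *Elf5* (at most 2.18 CPM) were not called, and all 3 were at background.

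*Trp63* counted 108 and 39 UMIs in CTL hormone-sensing cells and 2 and 0 in LATS1/2-KO. Over each group that is 6.01 and 0.449 unscaled CPM, a CTL to LATS1/2-KO ratio of 13.4 with an exact 95% interval of 3.64 to 111 for counting error only. The fitted log2 change was -3.73 ± 1.04 (adjusted p = 0.040). With cells thinned to 2000 UMIs, 1.97% and 0.549% of CTL hormone-sensing cells held a *Trp63* UMI (7.49% and 3.81% before thinning). In CTL non-epithelial cells 0 of 204 and 0 of 112 thinned cells did, with exact 95% upper limits of 1.79% and 3.24%, so that at this depth the share in CTL replicate 2 was not above background. The 8 basal markers summed to 18.5 and 19.5 unscaled CPM in the CTL and 42.3 and 24.4 in the LATS1/2-KO class, and their part in this result was not tested.

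These calls rested on few LATS1/2-KO cells. Without LATS1/2-KO replicate 1, which leaves the 108 cells of replicate 2, none of the 4 was called (*Gata3* -0.82, *Foxq1* 1.76, *Ehf* 0.63, *Trp63* -8.70) and the genes called numbered 776, and without replicate 2 *Ehf* (0.80) and *Trp63* (-3.25) lost their calls and 1469 genes were called. Without CTL replicate 1, *Ehf* (0.53) and *Trp63* (-2.75) were not called, while *Elf3* was called lower in 8 of 15 alternatives (log2 changes of -1.30 to -0.51 over the 15), among them those without CTL replicate 1 (-1.15) and without CTL replicate 2 (-0.51). With classes taken from clusters, which add cells holding both luminal marker sets, *Ehf* turned to -0.42 and was not called, and *Elf5* was called lower (-1.95). The class also held more dividing cells in LATS1/2-KO, 15.1% and 23.1% against 3.20% and 9.26%, and fibroblast markers at 735 and 593 against 116 and 641 unscaled CPM; their part was not tested.

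Basal cells also held higher *Foxq1* in LATS1/2-KO, together with higher *Foxc1* and lower *Gata3*, *Tfap2c*, *Bcl11a* and *Trp63*. Of 9 members 7 were tested and 6 were called, 2 higher and 4 lower. In the background 34.5% of 8397 tested genes were called, 17.6% higher and 16.9% lower. The median log2 change was -0.80 over the members tested and 0.00 over all genes tested. *Elf5* (7 and 15 UMIs in CTL and LATS1/2-KO) and *Ehf* (5 and 37 UMIs) were too low to be tested.

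*Gata3* had 183 and 237 CPM in CTL against 98.2 and 90.7 in LATS1/2-KO, for a log2 change of -1.16 ± 0.17 (adjusted p = 1.0e-05). *Tfap2c* had 164 and 217 against 97.5 and 86.4, a log2 change of -1.06 ± 0.18 (adjusted p = 4.3e-05). *Trp63*, the gene that defines this layer, had 137 and 95.9 against 73.6 and 60.3 CPM, a log2 change of -0.80 ± 0.20 (adjusted p = 0.0026). In all 3 genes both LATS1/2-KO mice were below both CTL mice, as groups did not overlap in 67.3% of tested genes. *Bcl11a* had 18.8 and 11.8 against 6.14 and 5.22 CPM from 10, 7, 9 and 11 UMIs, a log2 change of -1.41 ± 0.47 (adjusted p = 0.022).

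*Foxq1* had 5.65 and 3.36 CPM in CTL, from 3 and 2 UMIs, against 35.4 and 28.5 in LATS1/2-KO, for a log2 change of 2.80 ± 0.50 (adjusted p = 0.00011). *Foxc1* had 15.1 and 6.73 CPM in CTL, from 8 and 4 UMIs, against 27.3 and 37.5, a log2 change of 1.62 ± 0.42 (adjusted p = 0.0037). Its mean in unscaled CPM was 10.2 in CTL basal cells and 11.1 in CTL fibroblasts, and 33.2 and 9.70 in LATS1/2-KO. Both forkhead genes were thus called higher, from low CTL counts. *Elf3* did not pass the test, at 11.3 and 10.1 against 6.14 and 11.4 CPM (adjusted p = 0.78). The call for *Trp63* was lost without CTL replicate 1 (-0.51), for *Foxc1* without CTL replicate 2 (1.12, when 1925 genes were called), and for *Bcl11a* without any 1 of the 4 libraries (-1.04 to -1.73). DESeq2 called 3 of the 6, without *Foxc1* (1.59), *Trp63* (-0.81) and *Bcl11a* (-1.44). The 9 luminal ER- markers summed to 1615 and 1869 unscaled CPM in CTL basal cells and to 2617 and 2271 in LATS1/2-KO basal cells, and basal markers to 8363 and 10299.6 against 5515 and 6548; their part in these results was not tested. Without TMM the median gene in basal cells was 0.12 higher and 60.0% of calls were higher in place of 51.0%, with the same 6 members called.

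**Figure D3:**
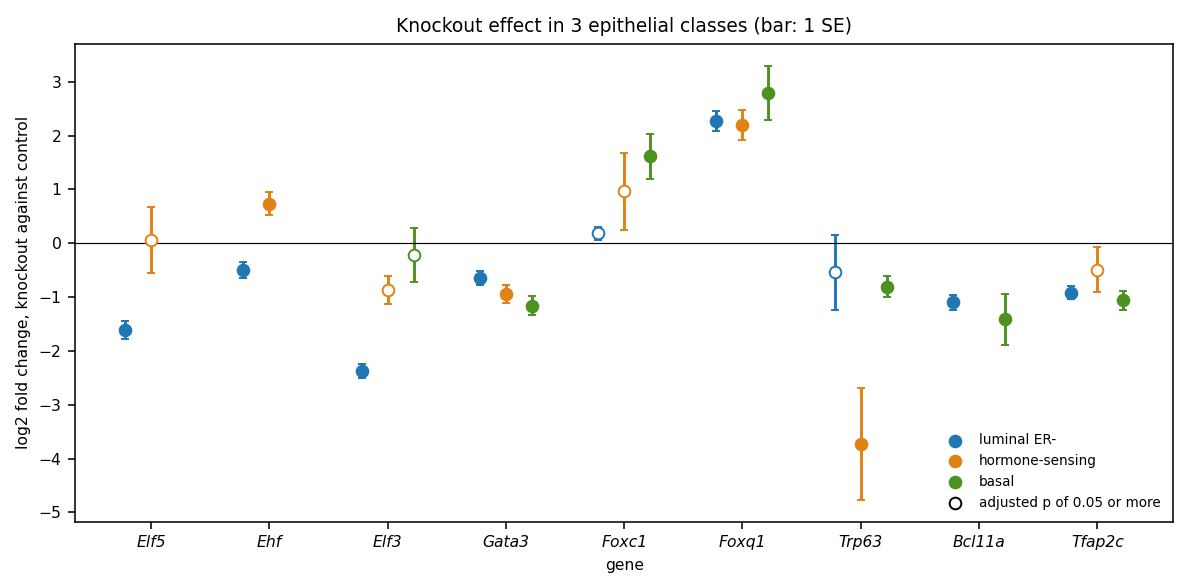
Log2 fold change of LATS1/2-KO against CTL (y axis, with bars of 1 SE) for the 9 genes (x axis) in luminal ER-, hormone-sensing and basal cells, from 2 libraries per group; open circles did not pass an adjusted p of 0.05 and absent circles were not tested. *Foxq1* is at 2.20 to 2.80 in the 3 classes, *Gata3* at -0.65 to -1.16, and *Elf3* at -2.38 in luminal ER- and -0.87 in hormone-sensing cells, the latter with an open circle at an adjusted p of 0.051 by edgeR.

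Differences between classes were tested directly as an interaction, with each mouse as its own block. Against luminal ER- cells, the knockout effect in hormone-sensing cells was higher for *Ehf* by 1.36 ± 0.19 (adjusted p = 0.00047), *Elf3* by 1.62 ± 0.26 (adjusted p = 0.0010) and *Elf5* by 1.84 ± 0.54 (adjusted p = 0.031), and it was lower for *Trp63* (-3.46 ± 0.98, adjusted p = 0.026). Such differences were called for 22.4% of 13910 tested genes. In basal cells the effect was higher for *Elf3* by 2.31 ± 0.45 (adjusted p = 4.1e-06), *Ehf* by 1.85 ± 0.56 (adjusted p = 0.010) and *Foxc1* by 1.59 ± 0.39 (adjusted p = 0.00040), against a background of 23.9% of 13584 genes. *Gata3*, *Foxq1*, *Bcl11a* and *Tfap2c* passed neither test. In hormone-sensing cells *Bcl11a* had at most 3 UMIs in any library, for a difference of 3.01 ± 1.61, and *Tfap2c* was at background. For both genes that test could not show whether the effect was shared. *Elf5* in hormone-sensing cells and *Ehf* in basal cells were near the free RNA level, so that their differences set a fall in luminal ER- cells against a background. With classes from clusters the hormone-sensing differences were -0.09 for *Elf5* and 0.32 for *Ehf*, and neither was called.

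These differences were sensitive to single libraries. Without LATS1/2-KO replicate 1 the hormone-sensing differences of *Elf5* (0.47), *Elf3* (1.00) and *Trp63* (-8.58) were not called, nor was that of *Trp63* without LATS1/2-KO replicate 2 (-3.16). In basal cells, *Ehf* was not called without CTL replicate 1 (1.36) or LATS1/2-KO replicate 2 (1.67), *Elf3* without LATS1/2-KO replicate 2 (1.81) and *Foxc1* without CTL replicate 2 (1.11).

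EYFP separated cells within the same LATS1/2-KO mouse. Of luminal ER- cells, 378 and 434, or 18.8% and 21.8%, held an EYFP UMI. In these EYFP+ cells 8 members were tested and all 8 were lower than in cells without an EYFP UMI, with the mouse as block; 16.1% of 12424 tested genes were called lower, 16.3% higher and 32.3% in either direction. Values of both mice did not overlap between the cell groups for 7 of the 8, as for 55.9% of tested genes. The median log2 difference was -0.79 over the 8 members and -0.01 over all genes tested. *Lats1* was lower in EYFP+ cells as well, at 9.53 and 12.01 CPM against 17.3 and 21.2, while *Lats2* was not called.

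*Elf5* had 113 CPM in EYFP 0 and 71.7 in EYFP+ cells of LATS1/2-KO replicate 1, and 153 and 74.5 in replicate 2, a log2 difference of -0.86 ± 0.09 (adjusted p = 7.3e-05). *Ehf* had 277 and 154, and 387 and 197, a log2 difference of -0.92 ± 0.06 (adjusted p = 5.5e-06). Both ETS genes fell in both mice. *Elf3* had 41.5 and 35.2, and 57.8 and 33.1, a log2 difference of -0.55 ± 0.12 (adjusted p = 0.0069). *Bcl11a* had 13.0 and 7.10, and 17.5 and 7.62, a log2 difference of -1.06 ± 0.16 (adjusted p = 0.00074). *Tfap2c*, *Gata3* and *Foxc1* were lower by smaller amounts, with log2 differences of -0.72 ± 0.09, -0.53 ± 0.07 and -0.31 ± 0.07 (adjusted p = 0.00032, 0.00029 and 0.0062).

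*Foxq1* moved in opposite directions in the 2 comparisons. It was higher in LATS1/2-KO than in CTL luminal ER- cells, yet within each LATS1/2-KO mouse it was lower in EYFP+ cells, with 74.5 CPM in EYFP 0 and 39.1 in EYFP+ cells of replicate 1 and 85.0 and 36.9 in replicate 2. The log2 difference was -1.07 ± 0.09 (adjusted p = 2.3e-05). In unscaled CPM both cell groups stood above CTL, with 74.0 and 84.6 in EYFP 0 cells and 38.8 and 37.6 in EYFP+ cells against 12.9 and 8.45. *Ehf* in EYFP 0 cells (275 and 385) overlapped CTL (286 and 332), and in EYFP+ cells (152 and 200.4) lay below it. *Elf5* (112 and 152) and *Elf3* (41.2 and 57.4) were below CTL also in EYFP 0 cells.

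The split by EYFP carried other differences with it. EYFP+ cells were deeper, with a median of 13726 and 15776.5 UMIs against 7059 and 7366, more held *Mki67* or *Top2a* (56.1% and 40.1% against 27.2% and 18.4%), more held 2 or more *Krt14* UMIs (81.5% and 71.7% against 48.9% and 31.6%), and their luminal ER- marker score was lower (1.052 and 1.16 against 1.80 and 1.88). An EYFP count of 0 does not show that a cell lacked Cre activity. With cells thinned to 2000 UMIs before the EYFP call, 156 and 190 cells were EYFP+ and *Ehf* (-0.73), *Elf5* (-0.79), *Foxq1* (-1.08) and *Tfap2c* (-1.35) were still called of 630 genes in all, while *Elf3* (-0.53), *Gata3* (-0.27), *Foxc1* (-0.54) and *Bcl11a* (-1.87) were not. With dividing cells left out the same differences were -0.37 to -0.80, with *Elf3* not called. Without the block for mouse only *Foxq1* was called. The difference of *Elf3* came mainly from replicate 2, at -0.80 against -0.24 in replicate 1 alone.

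**Figure D4:**
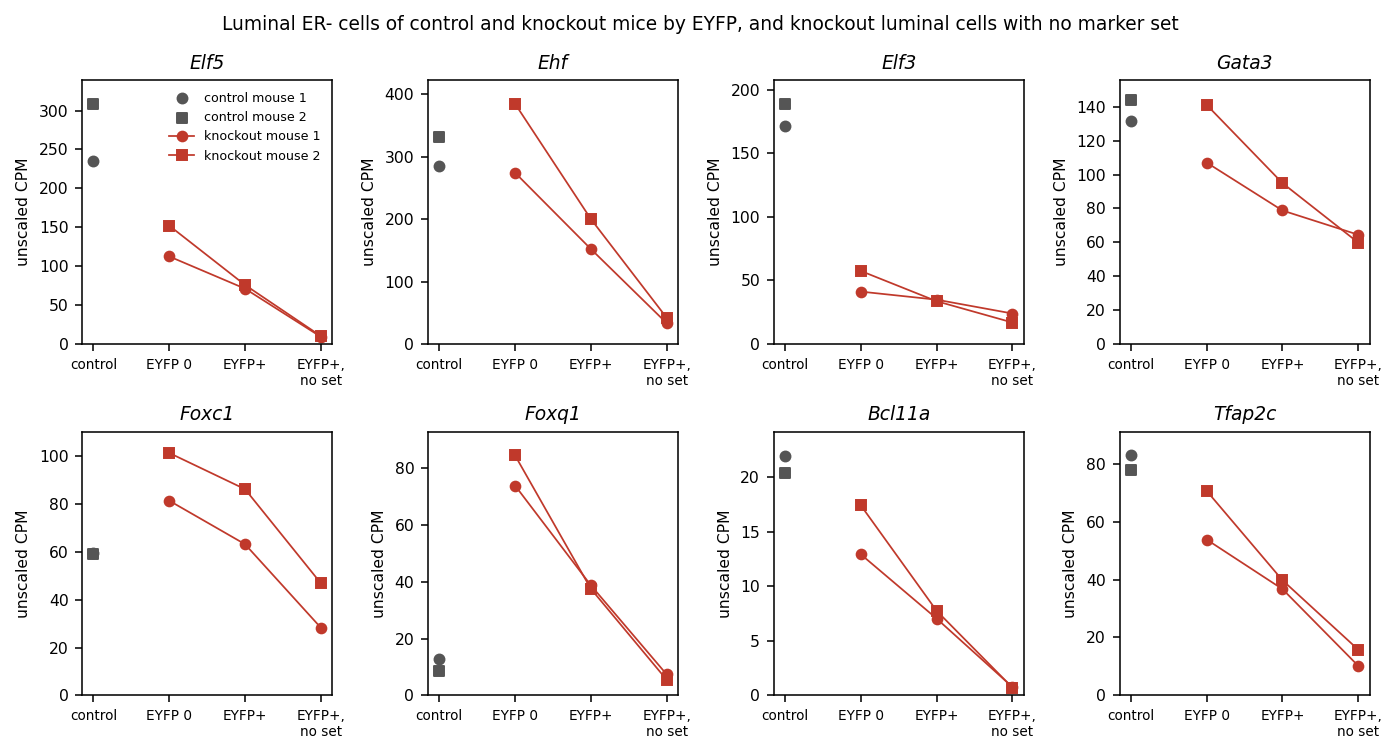
Unscaled CPM (y axis) of 8 genes in luminal ER- cells of CTL mice, in EYFP 0 and EYFP+ luminal ER- cells of the LATS1/2-KO mice and in their EYFP+ luminal cells without a marker set (x axis); lines join values of 1 mouse. Lines fall from EYFP 0 to EYFP+ for every gene, and *Foxq1* is above CTL at both and at 7.39 and 5.50 in EYFP+ cells without a marker set.

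In hormone-sensing cells EYFP+ cells numbered 30 and 17, under the minimum of 20 in LATS1/2-KO replicate 2, so no test was made. *Gata3* was at 89.9 and 111 unscaled CPM in EYFP+ and at 144 and 189 in EYFP 0 cells. *Elf3* was at 65.9 and 72.7 against 81.6 and 48.1, and *Foxq1* at 33.0 and 17.1 against 29.0 and 19.9. Only *Gata3* of these 3 was lower in the EYFP+ cells of both mice. In luminal cells without a marker set, where 51.3% and 63.4% held EYFP, *Foxc1* was at 28.3 and 46.9 in EYFP+ and 40.2 and 65.7 in EYFP 0 cells, and *Ehf* at 33.4 and 42.1 against 43.9 and 68.9.

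Relatives and partners of the members were read from 5 lists. Their counts stand against the 59.7%, 25.9% and 34.5% of all tested genes that were called in luminal ER-, hormone-sensing and basal cells. Of 11 other ETS genes all were tested in luminal ER- cells, where 4 were higher, 6 lower and 1 not called, with a median log2 change of -0.41. *Etv4* (3.88) and *Elk3* (2.04) were the most raised and *Ets2* (-2.02) and *Spdef* (-1.71), a factor of secretory cells, the most lowered. *Spdef* was low in both groups, with means of 1.69 CPM in CTL and 0.50 in LATS1/2-KO, where *Ets2* had 519 and 128. In hormone-sensing cells 5 were higher and 2 lower of 11, with *Spdef* higher (2.16) and *Ets2* lower (-1.20). In basal cells 4 of 9 tested were called, each of them higher, with *Etv4* (1.31) and *Elf1* (1.25) at the top. The medians were 0.24 and 0.72.

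Of 17 GATA, forkhead, p53, BCL11 and AP-2 relatives 11 were tested in luminal ER- cells, with 1 higher, 5 lower and a median of -0.19. The forkhead genes *Foxj1* (2.80), a regulator of cilia, and *Foxi1* (-2.53) and *Foxa1* (-1.61), the latter a partner of the estrogen receptor, were at the ends. *Foxj1* was lower in hormone-sensing (-1.18) and basal cells (-1.85), where 1 of 10 and 3 of 10 relatives were lower and 0 and 1 were higher. Among 26 other lineage factors 25 were tested in luminal ER- cells, 1 was higher and 15 were lower, with a median of -0.76. The Notch target *Hey1* (-2.40) and *Cebpb* (-2.12) were lowest there, and *Hey1* (-2.01) and *Egr2* (-3.09) in basal cells, where 3 were higher and 6 lower of 18 tested. In hormone-sensing cells 5 of 17 tested were called, each of them higher. *Sox4* rose in hormone-sensing (1.58) and basal cells (1.55).

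Genes tied to p63 in stratified epithelium rose in luminal ER- cells, 11 higher and 3 lower of 15 tested, with a median of 1.39, while *Trp63* itself was not called. *Krt14* went from 2.83 ± 0.888 to 884 ± 267 CPM (SD, n = 2), a log2 change of 8.27, and *Krt17* by 4.199, while *Krt15* (-2.69) fell. In basal cells 10 of 15 were higher and 2 lower, with *Itgb4* (1.91), which encodes a hemidesmosome integrin chain, raised and *Krt15* (-4.33) and *Dst* (-1.06) lowered. *Krt5*, in this list, was also a basal marker of the gates, and the luminal classes excluded cells with a high basal marker score. In hormone-sensing cells 8 of 13 were higher and 2 lower, with *Krt14* (4.89) and the desmosomal *Pkp1* (4.29) raised. Of 8 milk protein genes tied to *Elf5* 6 were tested in luminal ER- cells and 5 were lower, with a median of -3.50, and *Csn3* among the 8 was also a marker of the class. *Lalba* fell from 28.9 ± 17.2 to 0.372 ± 0.0284 CPM (SD, n = 2). *Csn1s2a* fell by 5.95 on the log2 scale, from a low mean of 4.15 CPM to 0.059. Medians over all genes tested were 0.01, -0.01 and 0.00 in luminal ER-, hormone-sensing and basal cells.

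Genes most like each member were sought over 12 sums, 3 classes in 4 libraries, by Pearson correlation of log2(CPM + 1) among 8174 genes, as a description. *Elf5* was closest to *Csn3* (r = 0.995) and *Ltf* (0.986), milk and secretory genes that were also markers of the luminal ER- class. *Ehf* was closest to *Pard6b* and *Phf11d* (0.980 and 0.969), *Elf3* to *Zfp467* and *Casz1* (0.985 and 0.967) and *Gata3* to *Abhd14a* and *Hibadh* (0.957 and 0.941). *Foxc1* was closest to *Trim46* and *Atp2b1* (0.974 and 0.969), and *Foxq1* to *Tubb2b* and *Acot9* (0.974 and 0.969). *Trp63* was closest to *Pdlim4* and *Rasa3* (0.983 and 0.966), *Bcl11a* to *Epha4* and *Bcl2* (0.984 and 0.984) and *Tfap2c* to *Nfix* and *Fbxo32* (0.989 and 0.989). The 12 sums share mice and classes, so these values describe likeness across classes as much as across mice.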

How the data were processed

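The authors deposited UMI counts per gene and barcode, made with Cell Ranger on mm10; the submitters' processing notes name version 3.1.0 and the matrix headers 6.1.2. Cells with over 500 genes and under 20% mitochondrial UMIs were kept, 18200 of 20324 barcodes. Classes were set by mean log marker levels per cell, and 768 luminal cells with both luminal marker sets were left out, as were 1800 cells that passed no gate. The latter include cells with luminal keratins whose basal marker score reached the basal limit. Scrublet called 1, 0, 4 and 63 doublets in the 4 libraries, too few to have worked, so the cells with the highest scores were instead left out in an alternative.

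The UMIs of all cells of a class were added up within each library, and edgeR was applied to these sums with its quasi-likelihood test (TMM, filterByExpr, Benjamini-Hochberg over all genes tested, threshold 0.05), 2 libraries against 2. Each mouse gave 1 library, so p-values of LATS1/2-KO against CTL measure the spread between these mice. The EYFP test and the differences between classes had the mouse as block. Their p-values measure how differences within a mouse vary between mice. EYFP+ and EYFP 0 sums had the mouse as block and needed 20 cells each. Intervals are exact and cover counting error only. The tests were also tried on simulated counts built from these fits. Of genes changed by 1 on the log2 scale, 74.2% in luminal ER-, 57% in hormone-sensing and 49.0% in basal cells were recovered. Of all genes called there, 8.65%, 14.6% and 5.48% were unchanged ones. Few genes were changed, in luminal ER- cells 97 by 1 and 100 by 2 of 13176, whereas 59.7% were called in the data. The rates may therefore not hold for the data.

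The members and lists were chosen with earlier results of these data known, gate limits were set after marker levels were seen, and the alternatives with library totals, a luminal ER- score of at least 1, and luminal cells without a marker set added were chosen after seeing the data, as was leaving out libraries from differences between classes. All 9 members were named in every comparison; of each list, up to 2 called genes at each end whose libraries did not overlap (some are not reported here); and the 2 closest genes of each member with a mean of at least 10 CPM. Python 3.11.15, scanpy 1.11.5, R 4.3.3, edgeR 4.0.16, DESeq2 1.42.0 and Seurat 5.3.0 were used.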

Additional observations from a re-analysis of the deposited data

Results flagged for a closer look

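The difference of LATS1/2-KO from CTL differed between classes for 5 members, by a test of the difference itself in edgeR. Of all genes tested, 22.4% were called for hormone-sensing and 23.9% for basal cells, each set against luminal ER- cells. An EYFP UMI was held by 8.11% and 15.7% of LATS1/2-KO hormone-sensing cells and 3.80% and 2.84% of basal cells. *Lats1* was not called in either class, so loss of *Lats1/2* was not shown there. Between hormone-sensing and luminal ER- cells the differences were 1.84 for *Elf5*, 1.36 for *Ehf*, 1.62 for *Elf3* and -3.46 for *Trp63* on the log2 scale. Between basal and luminal ER- cells they were 1.85 for *Ehf*, 2.31 for *Elf3* and 1.59 for *Foxc1*. *Elf5* in hormone-sensing cells and *Ehf* in basal cells were counted with at most 25 UMIs in any library, near the level of cells that are not epithelial. *Elf3* in basal cells had at most 24 UMIs in any library and was near that level in CTL. *Trp63* in luminal ER- cells had at most 26 UMIs in any library.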

How the results depend on the processing

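*Elf5*, *Elf3*, *Foxq1*, *Bcl11a* and *Tfap2c* in luminal ER- cells (18 alternatives), *Gata3* and *Tfap2c* (16) and *Foxq1* (15) in basal cells and *Foxq1* in EYFP+ cells (11) kept their calls in every alternative with a test; no call in hormone-sensing cells did. Replicate numbers did not pair the mice (correlations of 0.028, 0.041 and 0.018), and with them as a block 8298, 2754 and 2927 genes were called in luminal ER-, hormone-sensing and basal cells. Without the block for mouse the EYFP comparison called 37 genes and 1 member, and the difference between hormone-sensing and luminal ER- cells 2 members, as it did with classes from clusters.

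With cells thinned to 2000 UMIs, 4982 genes were called in luminal ER-, 1074 (2 members) in hormone-sensing, 1243 (3) in basal and 630 (4) in EYFP+ cells. DESeq2 called 1925, 1350 (3 members) and 1231 in the last 3. Sums thinned to the smallest gave 1669 in hormone-sensing cells, and leaving out dividing cells 2365 in the EYFP comparison. Leaving out 1 library gave 776 to 3165 genes and 0 to 5 members in hormone-sensing cells, 1925 to 2235 genes in basal cells, and 1230 to 2832 genes and 1 to 5 members for the difference between hormone-sensing and luminal ER- cells.

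Direction turned for *Trp63* in luminal ER- cells without CTL replicate 1 (leave-one-out range -1.24 to 1.17), *Ehf* without *Krt14* cells (0.0534) and *Foxc1* with cells of no marker set added (-0.016); in hormone-sensing cells for *Elf5* with DESeq2 (-0.0362), under 10% mitochondrial UMIs (-0.0868), without LATS1/2-KO replicate 1 (range -1.03 to 0.384) and with clusters (-1.95), and for *Ehf* with clusters (-0.42); and for the *Elf5* difference between classes with clusters (-0.0877). The causes were not tested. The EYFP alternatives in hormone-sensing cells were not run, since 17 cells were too few. At this depth *Bcl11a* in hormone-sensing cells and *Elf5* and *Ehf* in basal cells were too low to be tested.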

Other observations

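Outside the epithelium, *Foxc1* was counted with 37 UMIs in 327881 in CTL and 63 in 1981208 in LATS1/2-KO endothelial cells, a ratio of 3.55 with an exact 95% interval of 2.30 to 5.41 for counting error only. *Gata3* in immune cells was at 72.8 and 76.1 unscaled CPM in CTL and 4.23 and 13.4 in LATS1/2-KO. The immune cells of the 2 groups lay mostly in different clusters, 1 with 187 and 80 CTL and 34 and 121 LATS1/2-KO cells and another with 7 and 6 against 227 and 328. Neither difference was tested over mice.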
